A study of Carassius auratus with 5 samples.

Results

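Heat shock proteins and folding factors were represented on a goldfish cDNA array by 84 of its 8099 clones, picked by words in their deposited names such as heat shock, chaperone, DnaJ, T-complex protein, prefoldin, peptidyl-prolyl and FK506. The 84 clones carried 45 different names, which fall under 35 gene labels, and all 84 were bright enough to be tested. The words calreticulin, calnexin, disulfide isomerase and endoplasmin found no clone, so that these chaperones of the endoplasmic reticulum were not among the members. Of the 84, 4 clones entered only because their names start with HSPC, a prefix of numbered transcripts that are not heat shock proteins, and they are described apart from the chaperones.

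The RNA came from the telencephalon, the front part of the forebrain, of sexually mature female goldfish (Carassius auratus). The exposed fish were kept in water with fadrozole, an aromatase inhibitor, at 50 µg/L, and the controls in untreated water. Each of 5 arrays carried Cy3-labeled RNA from 1 independent group of exposed fish against Cy5-labeled RNA from a single pool of unexposed fish, without a dye swap. How many fish made up each group, and for how long they were exposed, is not given in the sources used here. Every ratio below is therefore fadrozole over that pool, on the log2 scale, and its spread is that of the 5 exposed groups and their arrays only. A difference between the dyes and a difference between the treatments cannot be told apart in this design.

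Chaperones bind proteins that are not yet, or no longer, folded. HSP70 and its DnaJ partners take up new chains, prefoldin and the TCP-1 ring fold actin and tubulin, and peptidyl-prolyl isomerases turn the bonds before proline. HSP90 acts late, on kinases and on steroid receptors, which it holds in a state that can bind hormone together with p23 and with the large FK506-binding proteins FKBP4 and FKBP5. Fadrozole blocks aromatase, which converts androgens into estrogens and is abundant in the radial glia of the fish forebrain. The comparison asks which transcripts of this tissue differ when that enzyme is inhibited.

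Taken as a group, the chaperone clones lay close to 0. Their mean ratios had a median of 0.01 and quartiles of -0.09 and 0.09, and all 8078 tested clones had a median of -0.0031 and quartiles of -0.09 and 0.09. The lowest member, an HSP90 beta clone, stood at -0.66 and the highest, an FKBP1A clone, at 0.35. At an adjusted p under 0.05 (limma, Benjamini-Hochberg over all tested clones), 1 of the 84 members was called lower, which is 1.19%, where 1.61% of all tested clones were. In the other direction 0 members were called, where 0.421% of all clones were, and over both directions 2.03% of all clones were. The share of called members is thus near that of the array as a whole.

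The looser counts were read in the same way. At an unadjusted p under 0.05 there were 4 lower members (4.76%), against 8.06% of all clones, and 7 higher ones (8.33%), against 6.29%. Below 0 on all 5 arrays stood 2 members, 2.38% against 7.65% of all clones, and above 0 on all 5 stood 12 members, 14.3% against 7.14%. A single clone had a median SD over the arrays of 0.19, as against 0.20 for all clones, and a median 95% interval of 0.20 to either side of its mean. In simulated data on 8078 clones the test called 68 of 100 clones made to change 1.5-fold and 96 of 100 made to change 2-fold. Smaller differences in single chaperones could thus be missed. The simulation gave both channels the brightness of the control channel and no plate shift, so these counts need not hold for members dim in the fadrozole channel.

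**Figure D1:**
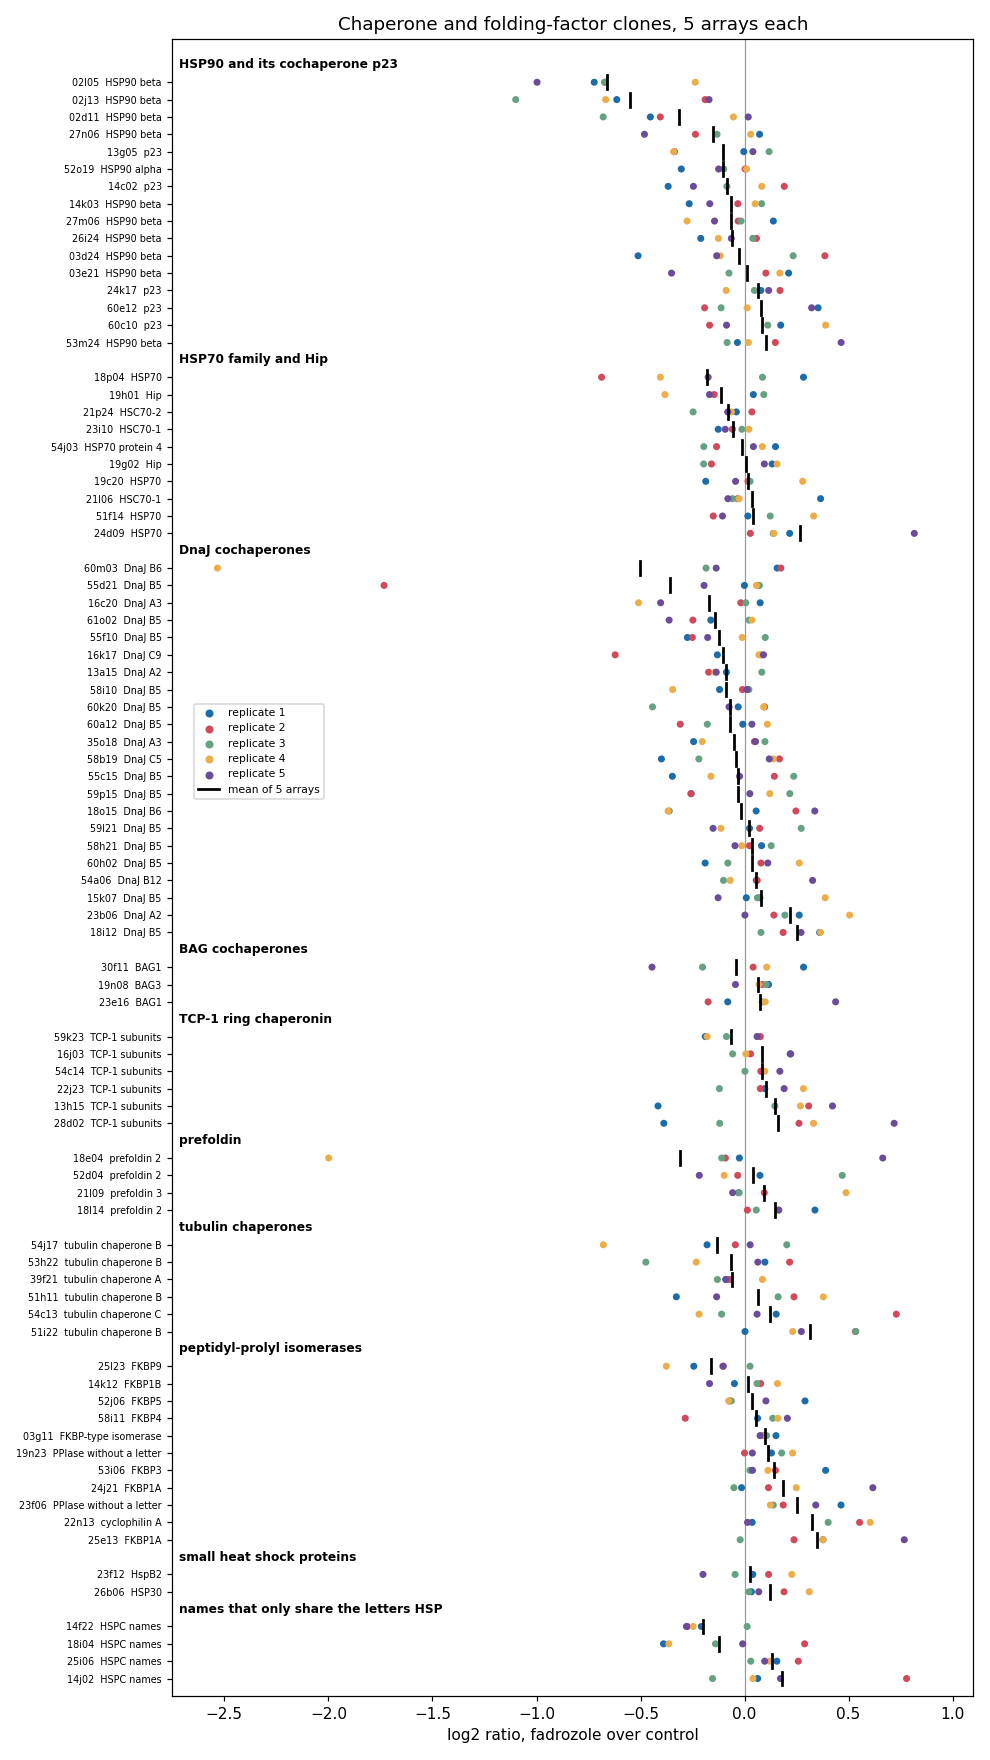
Log2 ratio of fadrozole over control (x axis) for each of the 84 clones, by group. Colored points are the 5 arrays and the black bar is their mean; most bars lie within 0.2 of 0, the HSP90 beta clones 02l05 and 02j13 have the lowest means, and single points at -2.53, -2.00 and -1.73 stand far from the other arrays of their clones.

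By the local background, brightness limits these values more in one channel than in the other. In the control channel, 73 to 83 of the 84 members on an array exceeded the local background by 2 SD. The fadrozole channel did so for 14 members on replicate 1, 47 on replicate 2, 34 on replicates 3 and 4, and 66 on replicate 5. Over all spots the share above background was 77.5% to 90.1% for control and 22.4% to 64.3% for fadrozole. Median spot intensities were 60.6 to 92.6 for control and 121 to 380 for fadrozole, while empty spots had medians of 0 to 52.3 and 98.0 to 310. By the median empty spot the channels were closer, with 70 to 80 members above it for control and 64 to 72 for fadrozole. Control spots could also be at the floor. In HSP70 clone 19c20, for example, both read 0 on replicates 3 and 4. Of the members, 35 (41.7%) exceeded the background in the fadrozole channel on at least 3 arrays, where 41.5% of all clones did, and 9 (10.7%) did so on 0 arrays, where 6.98% did. For those 9 the fadrozole signal was raised, as a bound, to at least the dimmest signal above background on its array. Except in FKBP9 (25l23) this left the mean as measured, so that these ratios were in effect not bounded. In 5 of the 9 the mean control signal lay above that fadrozole mean, by 1.02-fold to 1.13-fold, and in the other 4 it lay below. These folds are mean values and leave out the spread over the arrays. The limma interval of the mean ratio included 0 in all 5, so that no minimum fold is shown.

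**Figure D2:**
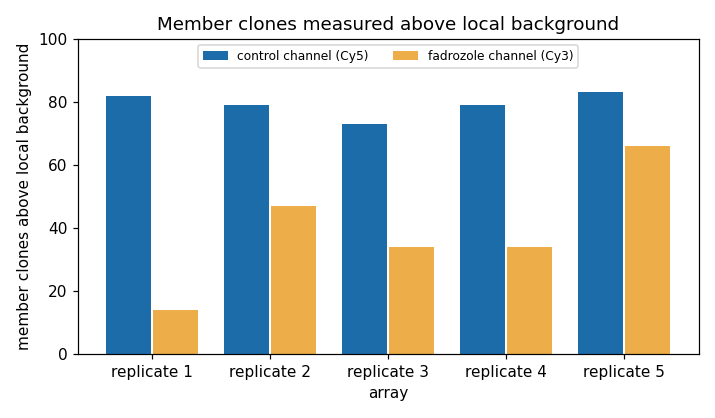
Number of the 84 member clones above local background by 2 SD (y axis) on each array (x axis), with control (Cy5) in blue and fadrozole (Cy3) in yellow. The control bars reach 73 to 83 clones on every array, and the fadrozole bars run from 14 on replicate 1 to 66 on replicate 5.

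Marker clones of several cell types were compared with empty spots. Of 18 clones named for neuronal proteins such as SNAP-25 and synaptotagmin, 14 exceeded the median empty spot on all 5 arrays in the control channel and 13 in the fadrozole channel, and for 26 myelin clones these counts were 21 and 19. Of 10 radial glia and astroglia clones 6 and 3 did so, and of 12 globin clones, which mark blood, 11 and 8. Of 68 clones found by the muscle words myosin heavy, troponin, parvalbumin and creatine kinase, 55 and 41 did so. Whether these clones stand for muscle alone was not tested. With these word lists, brightness above empty spots does not tell the telencephalon from other tissue. The neuronal clones averaged below 0 on each array, from -0.19 to -0.06, with a median clone at -0.03. Of the 17 tested, 2 were called lower, where 1.61% of all tested clones were. Of the 130 lower calls on the whole array, 94 lay on source plate 02 and 33 on plate 04. With each source plate centered, 0 clones of the array were called. The 1 clone that the pituitary words found is named for a receptor and not for a hormone. The 12 globin clones averaged -0.73 on replicate 3 and -0.66 on replicate 5, against -0.05 to 0.06 on the other 3 arrays, with 0 of them called. Summed over these clones, control intensities ran from 793 to 3628 by array and fadrozole intensities from 1628 to 6318. The control sums were highest on replicates 3 and 5 (3628 and 3235), although the same pool was on every array. A difference in measurement between arrays was not tested. In whole tissue, fewer cells of a type and less RNA per cell cannot be told apart.

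HSP90 had the lowest group mean. With all clones kept, it lost that rank to the DnaJ group when source plates were centered or plate 02 was left out. It comprised 10 clones of HSP90 beta, the form made constantly in most cells, 1 of HSP90 alpha, its stress-inducible relative, and 5 of p23, the cochaperone that closes the HSP90 cycle. Its mean was -0.12 ± 0.04 (SD over 5 arrays), below 0 on each array from -0.15 to -0.07, with 11 of 16 clone means below 0, where 51% of all tested clones had a mean below 0. Under the other ways of processing the group mean ran from -0.15 to -0.03, the last without plate 02. With each source plate centered it was -0.06, against -0.07 for the DnaJ group, and without plate 02 the DnaJ group, at -0.05, was again the lower. The DnaJ mean includes 60m03 (-0.50, and -0.54 centered) and 55d21 (-0.36 in both). Each of these clones had a bright control spot on a single array, as given below. Without that array, and not centered, 60m03 averaged 0.0022 and 55d21 -0.02. The DnaJ mean that took the lowest rank thus holds 2 clones lowered by single arrays. The rank of the groups without these clones was not worked out. The neuronal marker clones also averaged below 0 on all 5 arrays, and their part in this shift was not tested. Whether source plates lowered the neuronal clones was not tested either. HSP90 beta averaged -0.18 ± 0.07 over its 10 clones. HSP90 alpha (52o19) stood at -0.10 ± 0.13, and p23 averaged 0.01 ± 0.04 over clones between -0.11 and 0.08.

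One HSP90 beta clone passed the test. Clone 02l05, named hsp90b, had log2 ratios of -0.72, -0.67, -0.67, -0.24 and -0.998 on replicates 1 to 5. All 5 arrays lay below 0, replicate 5 the lowest and replicate 4 the nearest to 0. Its 2 spots differed by a median of 0.58, against 0.24 for all tested clones. They read -0.43 and -1.01 on replicate 1, -0.98 and -0.37 on replicate 3, and 0.05 and -0.53 on replicate 4. On replicates 2 and 5 they were alike. It fell by 0.66 on the log2 scale (SD 0.27), a 1.58-fold lower signal, with a 95% interval of -0.90 to -0.42 and an adjusted p of 0.0208 (limma). Before the dyes were put on 1 scale its intensities were 213, 390, 281, 149 and 438 in the control channel, and 361, 417, 594, 465 and 151 in the fadrozole channel. The fadrozole intensity was above the median empty spot on every array, but above the local background by 2 SD on only 2 of them. The globin clones averaged near 0 on replicates 1, 2 and 4 and lower on replicates 3 and 5, and their relation to this clone was not tested.

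The other HSP90 beta clones of the same source plate lay on the same side without passing. Clone 02j13 gave -0.61, -0.19, -1.10, -0.67 and -0.17, below 0 throughout and lowest on replicate 3, with a mean of -0.55 ± 0.39 (limma adjusted p = 0.0746). Clone 02d11 gave -0.45, -0.41, -0.68, -0.05 and 0.02, close to 0 on replicates 4 and 5, with a mean of -0.31 ± 0.29 (limma adjusted p = 0.217). Over these 3 clones the mean was -0.60, -0.42, -0.82, -0.32 and -0.38 on the 5 arrays.

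Clones of HSP90 beta printed from other plates lay closer to 0. Clones 03d24 and 03e21 carry the very same name, hsp90b, and had means of -0.03 ± 0.35 and 0.01 ± 0.23. The 5 clones on plates 14, 26, 27 and 53 had means between -0.15 ± 0.22 (27n06) and 0.10 ± 0.22 (53m24). Together the 7 clones outside plate 02 averaged -0.04 ± 0.07, below 0 on 3 of 5 arrays, and the smallest adjusted p among them was 0.535 (limma). Their mean ran from -0.06 to 0.02 under the other ways of processing.

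**Figure D3:**
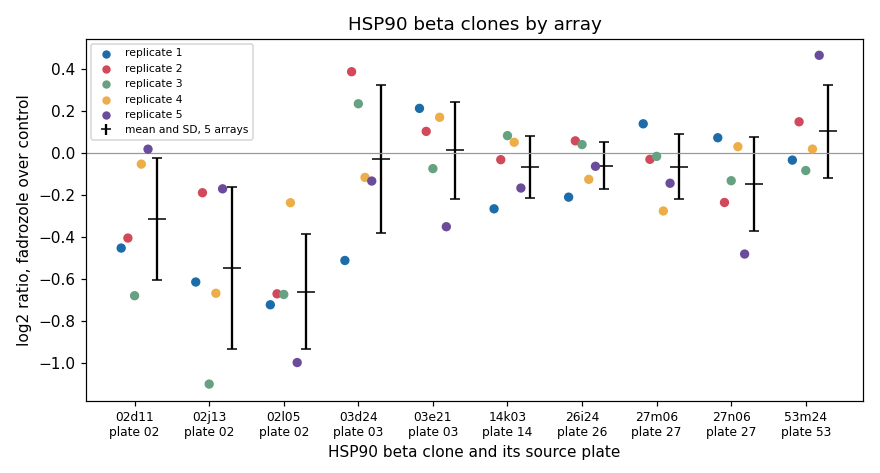
Log2 ratio of fadrozole over control (y axis) for the 10 HSP90 beta clones with their source plates (x axis). Points are the 5 arrays, bars the mean and SD; the means of the 3 clones of plate 02 run from -0.66 to -0.31 and those of the 7 others from -0.15 to 0.10.

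Plate 02 as a whole was low. Its 384 tested clones had a median of -0.35 ± 0.15 over the arrays and 24.5% of them were called lower. Plate 04, which holds 0 members, was the other low plate, with a median of -0.20 ± 0.08 and 8.59% called lower. Within the plate, 02l05 was the 27th lowest clone, 02j13 the 68th and 02d11 the 211th. With the median of each source plate set to 0, the values became -0.31 for 02l05 (limma adjusted p = 0.292), -0.20 for 02j13 and 0.03 for 02d11, and 0 clones of the array were called. Members on plate 02 minus members elsewhere differed by -0.52, and by -0.15 after that centering. Plate and gene cannot be told apart for a clone on plate 02, and the names do not say whether clones of 1 label are 1 transcript or the duplicated gene copies of this fish, which may also cross-hybridize.

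**Figure D4:**
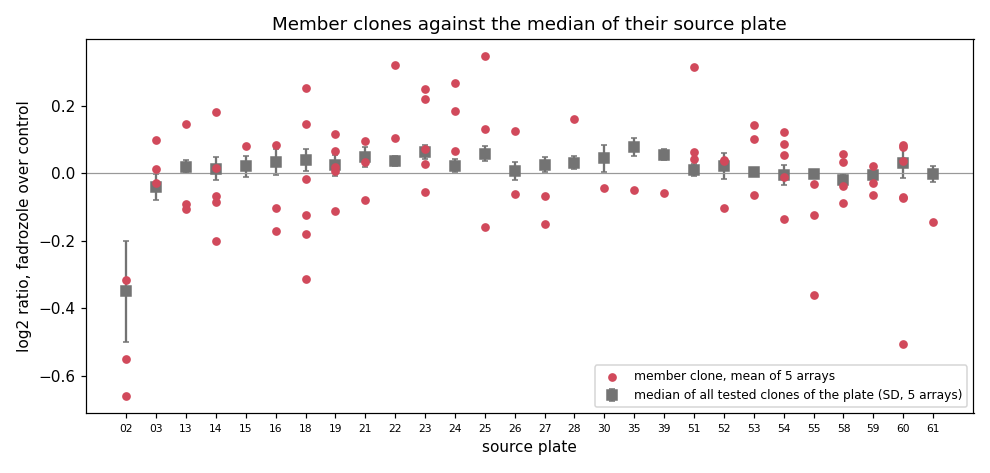
Mean log2 ratio of each member clone (red, y axis) by source plate (x axis), with the median of all tested clones of that plate and its SD over 5 arrays (gray). Plate 02 is set apart at -0.35, with its 3 HSP90 beta clones around it, while the medians of the other plates that hold members lie near 0.

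For HSP70, the central chaperone of new and damaged proteins, no clone passed the test. The 10 clones, with Hip, a protein that holds HSC70 on its substrate, averaged -0.01 ± 0.08, with 5 means below 0 and 5 above, and 0 were called. The highest was 24d09, named for a carp HSP70, with 0.22, 0.03, 0.14, 0.14 and 0.82 on the 5 arrays. All were above 0 and replicate 5 stood far above the others. Its mean was 0.27 ± 0.31 (limma unadjusted p = 0.045, adjusted p = 0.329), and 0.13 without replicate 5. At the other end stood 18p04, also HSP70, at -0.18 ± 0.39, with arrays from -0.69 to 0.28.

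The constitutive forms lay nearer to 0. HSC70-1, made in unstressed cells, was at 0.03 ± 0.19 in 21l06 and -0.05 ± 0.06 in 23i10, and HSC70-2 (21p24) at -0.08 ± 0.10. HSP70 protein 4 (54j03), of the branch that exchanges the nucleotide on HSP70, stood at -0.01 ± 0.15. The Hip clones were at -0.11 ± 0.19 (19h01) and 0.01 ± 0.17 (19g02), the latter with a fadrozole channel not above background on any array. For 21p24, bright in both channels on all 5 arrays, the 95% interval ran from -0.25 to 0.09.

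DnaJ proteins, which deliver substrates to HSP70 and trigger its ATPase, made up the largest group with 22 clones. Their mean was -0.05 ± 0.05, with 15 means below 0 and 7 above, and 0 were called. Of all tested clones, 51% had a mean below 0. The lowest clones, 60m03 at -0.50 and 55d21 at -0.36, each had a bright control spot on a single array, as given below. The group mean ran from -0.13 with plain background subtraction to 0.07 with a stricter filter on dim clones. DnaJ B5 alone accounted for 13 clones, which averaged -0.04 ± 0.09. They spread from -0.36 (55d21) to 0.25 (18i12). Clone 18i12 gave 0.36, 0.19, 0.08, 0.37 and 0.27, above 0 on every array, with a mean of 0.25 ± 0.12 (limma unadjusted p = 0.0101, adjusted p = 0.158). Both of its control spots read 0 on replicate 3. The 11 B5 clones between these ends lay from -0.14 to 0.08, so that 18i12 does not stand for the label.

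Among the other DnaJ labels, A2 was split. Clone 23b06 gave 0.26, 0.14, 0.19, 0.50 and 0.00, with a mean of 0.22 ± 0.19 (limma unadjusted p = 0.0335, adjusted p = 0.289), and 13a15 of the same name stood at -0.09 ± 0.10. DnaJ A3, the mitochondrial form, was at -0.17 ± 0.27 in 16c20, whose fadrozole channel was not above background on any array, and at -0.05 ± 0.16 in 35o18. DnaJ C5, the cysteine string protein of synaptic vesicles, stood at -0.04 ± 0.26. DnaJ C9, a nuclear member, was at -0.10 ± 0.30 and DnaJ B12, of the endoplasmic reticulum membrane, at 0.05 ± 0.17.

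For a few of the lowest members 1 spot stood apart from the other. DnaJ B6, which keeps other proteins from aggregating, was at -0.50 ± 1.15 in 60m03, with -2.53 on replicate 4 and -0.19 to 0.17 on the other 4 arrays. There its 2 spots read 43.8 and 3201 in the control channel, against 283 and 289 in the fadrozole channel, and the spots' own log2 ratios were -0.03 and -5.04. Without replicate 4 the mean was 0.0022, and the other B6 clone, 18o15, stood at -0.02 ± 0.33. The low value of DnaJ B5 clone 55d21 on replicate 2, -1.73, had the same form, with control spots of 30.4 and 468, and its mean without that array was -0.02.

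BAG proteins release substrates from HSP70. BAG1 was at 0.07 ± 0.23 (23e16) and -0.04 ± 0.28 (30f11), and BAG3, which links chaperones to the disposal of aggregates, at 0.07 ± 0.06 (19n08). None of the 3 was called, and the smallest unadjusted p was 0.386.

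The machinery that folds actin and tubulin showed no called clone. The TCP-1 ring was covered by 6 of its subunits, which averaged 0.09 ± 0.16 and lay at 0.15 (alpha, 13h15), 0.09 (beta, 54c14), 0.16 (gamma, 28d02), 0.10 (delta, 22j23), 0.08 (epsilon, 16j03) and -0.06 (eta, 59k23). The ring mean was -0.10, 0.14, -0.04, 0.13 and 0.30 on replicates 1 to 5, so that the arrays fell on both sides of 0, and it was 0.03 without replicate 5. The alpha and gamma clones varied most, from -0.42 to 0.42 and from -0.39 to 0.72, and both were lowest on replicate 1 and highest on replicate 5. On replicate 1 the gamma value averages spots at -1.10 and 0.33, and the alpha value spots at -0.59 and -0.24. The fadrozole channel of the beta and eta clones was not above background on any array.

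Prefoldin, which hands actin and tubulin chains to the ring, averaged -0.01 ± 0.20 over 4 clones. Subunit 2 was at 0.15 ± 0.13 (18l14), 0.04 ± 0.26 (52d04) and -0.31 ± 0.996 (18e04), and subunit 3 (21l09) at 0.09 ± 0.23. Without replicate 4, where its control spots read 29.9 and 0, subunit 3 stood at -0.0045. In 18e04 replicate 4 gave -2.00 and replicate 5 gave 0.66, with the other 3 arrays between -0.11 and -0.03. On replicate 4 its control spots read 2017 and 49.9, again 1 bright spot of the 2. Without that array 18e04 stood at 0.11 and the prefoldin mean at 0.08.

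The tubulin-specific chaperones assemble the alpha and beta tubulin pair after the ring. Of their 6 clones, 51i22 of chaperone B, which binds alpha tubulin, was the highest, with 0.00, 0.53, 0.53, 0.23 and 0.27. Replicates 2 and 3 were highest and replicate 1 was at 0. Its mean was 0.31 ± 0.22 (limma unadjusted p = 0.00923, adjusted p = 0.152), the smallest p among members with a positive ratio, and its fadrozole channel was above background on all 5 arrays. The 3 other chaperone B clones stood at 0.06 ± 0.29 (51h11), -0.07 ± 0.28 (53h22) and -0.13 ± 0.33 (54j17). Single arrays set the sign of the last 2, since 53h22 was at 0.04 without replicate 3 and 54j17 at 0.0011 without replicate 4. Chaperone C (54c13) was at 0.12 ± 0.37, and at -0.03 without replicate 2, and chaperone A (39f21) at -0.06 ± 0.08, and the group averaged 0.04 ± 0.14.

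The peptidyl-prolyl isomerases had the highest group mean, with the TCP-1 ring next. Their 11 clones averaged 0.14, 0.09, 0.08, 0.15 and 0.18 on the 5 arrays, a mean of 0.13 ± 0.04. The median clone was at 0.11, 1 of the 11 means lay below 0, where 51% of all tested clones did, and 3 clones were higher at an unadjusted p under 0.05, where 6.29% of all clones were. None of the 11 was called. With each source plate centered the group mean was 0.11 ± 0.04, and over all the ways of processing that were tried it ran from 0.10 to 0.21. The TCP-1 ring was the higher of the pair with no background subtraction (0.165 against 0.163), with plain subtraction (0.133 against 0.121), in the authors' values (0.110 against 0.0966) and without replicate 1 (0.132 against 0.128). With the stricter filter on dim clones the tubulin chaperones, left there with 51i22 alone, stood above both groups at 0.31. The clones were grouped with their values known, and the group mean carries no test.

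**Figure D5:**
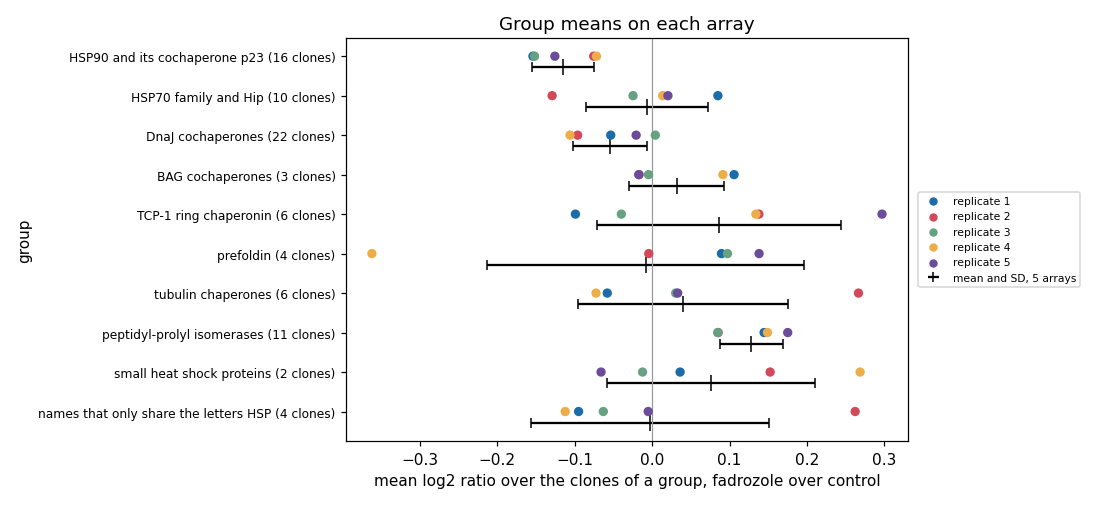
Mean log2 ratio over the clones of each group (x axis) on each of the 5 arrays (points), with the mean and SD over arrays (black). The HSP90 points all lie below 0 and the isomerase points all above 0, while the points of the other groups fall on both sides.

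FKBP1A, the small FK506-binding protein that also sits on calcium release channels, was the highest of all members. Clone 25e13 gave 0.38, 0.24, -0.02, 0.38 and 0.77, with replicate 3 at about 0 and replicate 5 highest, and a mean of 0.35 ± 0.29 (limma unadjusted p = 0.0107, adjusted p = 0.164). The other FKBP1A clone, 24j21, gave -0.01, 0.11, -0.05, 0.25 and 0.62, with a mean of 0.18 ± 0.27, and of 0.07 without replicate 5. Both were above background in both channels on all 5 arrays, and in both replicate 5 was highest and replicate 3 lowest.

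Cyclophilin A (22n13), an abundant cytosolic isomerase, gave 0.04, 0.55, 0.40, 0.60 and 0.01. Replicates 2, 3 and 4 were high and the other arrays near 0, with a mean of 0.32 ± 0.28 (limma unadjusted p = 0.0150, adjusted p = 0.196). The value of replicate 4 averages spots at 1.82 and -0.61, whose fadrozole intensities were 1133 and 316, and without that array the mean was 0.25. Of the 2 clones named as an isomerase without a letter, 23f06 gave 0.46, 0.19, 0.14, 0.12 and 0.34, above 0 on all arrays, with a mean of 0.25 ± 0.15 (limma unadjusted p = 0.0132, adjusted p = 0.184). Its namesake 19n23 was at 0.11 ± 0.10. These 3 clones averaged 0.23 ± 0.07 and the 8 FK506-binding clones 0.09 ± 0.07.

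The FK506-binding proteins that sit in HSP90 complexes with steroid receptors were near 0, at 0.06 ± 0.20 for FKBP4 (58i11) and 0.04 ± 0.16 for FKBP5 (52j06). FKBP3, a nuclear form, stood at 0.14 ± 0.15 (53i06), and both of its control spots read 0 on replicates 2 and 3. FKBP1B was at 0.02 ± 0.13 (14k12), and a clone named only as an FKBP-type isomerase at 0.10 ± 0.03 (03g11). FKBP9, a form of the endoplasmic reticulum, was the only isomerase below 0, at -0.16 ± 0.15 (25l23). Its fadrozole channel was not above background on any array. Its control signal had a mean log2 intensity of 7.14, against 6.98 measured for fadrozole and a bound of 6.99. The control signal thus lay 1.11-fold above the bound. The interval of the mean ratio ran from -0.35 to 0.03 (limma adjusted p = 0.436), so that no minimum fold is shown.

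Small heat shock proteins, which hold unfolded chains without using ATP, were present as HSP30 (26b06) and HspB2 (23f12). HSP30 gave 0.03, 0.19, 0.02, 0.31 and 0.07, with a mean of 0.12 ± 0.12 (limma adjusted p = 0.53). Both control spots of HSP30 read 0 on replicate 4, the array at 0.31. HspB2 stood at 0.03 ± 0.16. The HSPC clones, which are not chaperones by name, lay at -0.20 ± 0.12 (14f22), 0.18 ± 0.35 (14j02), 0.13 ± 0.08 (25i06) and -0.12 ± 0.28 (18i04). The first and the second carry the same name, HSPC020, and 14j02 was at 0.03 without replicate 2, which gave 0.78.

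A further list, also picked by words for folding, import and stress genes, held 19 clones that the first words do not cover. Some entered by a shared word only. These were Rab-7 (25p01, also named P23), YTH domain protein 2 (19h23) and a clone named for nuclear transcription factor X-box binding 1 (61l04). They stay in the counts. Of the 19 clones 0 were called, 10 had means above 0 and 9 below, and the median was 0.03. The 4 smallest p values belonged to TOM20, a receptor for mitochondrial import (28a24, 0.33 ± 0.32), GADD45, a stress-response protein (14o07, 0.33 ± 0.31), a signal peptidase subunit (40i16, 0.30 ± 0.27) and an inner membrane translocase subunit of mitochondria (14f23, -0.21 ± 0.14). Their adjusted p values lay between 0.218 and 0.249 (limma). Mitochondrial HSP70, named Stress-70 protein in the files (35h23), was at 0.03 ± 0.18, and derlin-1 (17n21), which serves the removal of misfolded proteins from the endoplasmic reticulum, at -0.09 ± 0.09.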

How the data were processed

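RNA of 5 groups of exposed fish and 1 control pool was measured on 5 arrays with 2 channels and 17328 spots, 2 per clone. Per the file headers, the deposited scanner intensity and local background are linear and not background subtracted. Slides 4, 14, 22, 33 and 44, per the labels, are replicates 1 to 5. The authors' deposited log2-like values, whose base and scaling are not stated, correlated across spots with scanner log2 ratios at -0.996 to -1.00, so that their sign was turned, and their column medians were -0.039 to 0.036. Names are those of the files.

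Background was corrected by normexp (offset 50) and dyes by loess (span 0.3) in limma 3.58.1 (R 4.3.3, statmod 1.5.0), with control, empty and ignored spots at weight 0. Ignored spots numbered 0 to 29 per array, 0 of them on members. The spots of a clone were averaged. Clones above local background by 2 SD in at least 1 channel and 0.5 of their spots on at least 3 arrays were tested (8078 of 8099). The mean log2 ratio was tested against 0 (two-sided; p adjusted by Benjamini-Hochberg over the 8078 clones; 4 residual and 5.24 prior degrees of freedom), where 164 were called. The number of arrays limits the precision.

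The members and lists were chosen with earlier results of these data known, and gene labels were made from the names. Named clones are all those of groups of up to 6, otherwise the 3 highest and 3 lowest, with all called, plate 02 and same-named clones. The source plate is the start of the clone name. Alternatives covered background, normalization, filter, ignored spots, the authors' values, variance estimation, array weights, plates, the day of image quantification (1 array on one day, 4 on another), a plain one-sample test, clones of 1 name averaged and each array left out. Added after seeing the data were the members without HSPC names and HSP90 beta outside plate 02. In simulated data, which held no plate shift, 4 of 7878 unchanged clones were called. Changes of 1.5-fold and 2-fold read there as median log2 changes of 0.38 and 0.67, smaller than those put in. Ratios and folds reported here may thus be compressed.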

Additional observations from a re-analysis of the deposited data

Results flagged for a closer look

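In 8 of the 84 members (9.52%), 1 array stood apart from the other 4 by more than Dixon's 95% critical value of 0.71, where 703 of 8077 clones (8.70%) did so over the whole array and chance gives about 1 in 20. The largest were DnaJ B6 (60m03) at -2.53 on replicate 4 and DnaJ B5 (55d21) at -1.73 on replicate 2, each with 1 bright control spot of 2. HSP70 (24d09) was at 0.82 on replicate 5, where both spots were high (0.94 and 0.69). HSC70-1 (21l06) stood at 0.37 on replicate 1, again in both spots (0.41 and 0.32), and prefoldin 3 (21l09) at 0.49 on replicate 4 (0.37 and 0.60). There the control spots of 21l09 read 29.9 and 0. Smaller gaps set apart BAG3 (19n08) at -0.04 on replicate 5, tubulin chaperone A (39f21) at 0.09 on replicate 4 and HSPC020 (14f22) at 0.01 on replicate 3. Replicate 4 held 3 of the 8, replicate 5 held 2 and each other array 1.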

How the results depend on the processing

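The count of members called higher was 0 under every alternative, and that of members called lower, 1 in the values reported, was 2 with median centering and with print-tip loess, where 02j13 joined 02l05, and 0 with no or plain background subtraction, the authors' values, robust estimation with an intensity trend, each source plate centered, plates 02 and 04 left out, a plain one-sample test, or clones of one described gene averaged. A stricter filter, which tested 31 members, left out 02l05 as too dim and called 02j13. With 1 array left out the count was 0 to 1, at 0 without replicates 1, 2 or 3. All clones called, 164 as reported, came to 0 in the same settings except averaging by name, to 363 with the stricter filter and to 0 to 174 with 1 array left out. Where 02l05 lost its call its log2 ratio ran from -0.69 to -0.31 and its adjusted p from 0.0853 to 0.292 (limma, and the plain test). The member median, 0.01 as reported, was -0.0342 with plain background subtraction, -0.0206 with the authors' values and 0.0729 with the stricter filter, and -0.0136 to 0.0215 with 1 array left out. The difference of plate 02 members from the others, -0.52, was -0.15 with plates centered and -0.57 to -0.44 with 1 array left out. Apart from plate centering and fewer clones tested, the cause of these changes was not tested. A random block for the day on which images were quantified (correlation -0.02) kept the call. No paired analysis was possible because each array holds 1 exposed group against the same pool. By the local background, the dim fadrozole channel limits most ratios. By the median empty spot the channels differed less, with 64 to 72 members above it for fadrozole and 70 to 80 for control.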
